A study of Bos taurus with 28 samples.

Results

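Interferon-stimulated genes were followed in mammary gland biopsies of 28 dairy cows. The set was named as 9 genes: ISG15, MX1, MX2, RSAD2, IFI6, IFI44, OAS1X, OAS1Y and IRF1. A gene was measured where a probe set of the array carried its symbol and no other. By that rule 7 of the 9 genes were measured, by 10 probe sets, out of 9155 genes and 24016 probe sets in all. IFI44 had 4 probe sets and the other 6 genes had 1 each. OAS1Y was covered only by a probe set that the annotation assigns to both OAS1Y and OAS2, so it was kept apart from the members, and IRF1 was not analysed here.

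The cows were Holstein-Friesians in mid-lactation, at 153 ± 32.8 days in milk, all fed a mixed ration of corn silage, grass silage and concentrates. They differed by labelled genotype at DGAT1, whose product catalyses the last step of triglyceride synthesis and whose residue under study is either alanine or lysine. There were 11 cows homozygous for alanine (A232A, here AA 1 to AA 11), 13 heterozygotes (A232K, KA 1 to KA 13) and 4 homozygous for lysine (K232K, KK 1 to KK 4). Each cow gave 1 RNA sample on 1 Affymetrix Bovine Genome Array, so a group's spread is the spread between cows, and each gland was measured on a single array.

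Type I and type III interferons are released by cells that sense viral nucleic acid. They act through cell surface receptors and a transcription factor complex that contains IRF9, which switches on a large set of interferon-stimulated genes. Interferon gamma, made by T and natural killer cells, acts, in part through IRF1, on a partly different set that is rich in antigen presentation genes and in the chemokine CXCL10. The mammary gland is mostly milk-secreting epithelium, with stroma and a variable number of leukocytes.

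The deposited values are log2 values relative to a baseline for each probe set that is not described, so levels of different genes cannot be compared. Every value of a gene in 1 array below is its log2 difference from the median of the 28 arrays for that probe set. The SD over probe sets, the count of probe sets beyond 2-fold and the control probe set differences were taken on the deposited values themselves. AA 2 and AA 9 stood apart from all other arrays. Over all probe sets AA 2 had an SD of 0.86 and AA 9 of 0.78, where no other array left the range of 0.21 to 0.35. Of their probe sets, 4807 and 3699 lay beyond a 2-fold difference from the baseline, against 62 to 449. The difference between the 3′ and 5′ GAPDH control probe sets, a measure of RNA integrity, was 1.33 in AA 2, the highest of 28 arrays. It was −0.66 in AA 9, the lowest. For actin it was −0.14 and −0.21. The part of RNA integrity in the values of these arrays was not tested. Markers of milk-secreting epithelium averaged −1.08 in AA 2 and −1.89 in AA 9 over 13 genes, and fibroblast markers averaged 1.15 and 1.33 over 9 genes. The epithelial markers were not uniformly low. In AA 2 8 of the 13 and in AA 9 11 lay below −0.5, beside 23.4% and 15.5% of all genes. The keratin KRT18 was high instead, at 2.19 and 2.85, and KRT8 was 0.16 and −0.35. In the tissue as a whole, 8 of the 13 epithelial markers, the caseins CSN1S1, CSN1S2 and CSN2 among them, were classed as above 8 in absolute log2 level, against 800 of all 9155 genes. The others, CSN3, PAEP, GLYCAM1, KRT8 and KRT18, were classed lower, 2 of them at 4 or above and 3 partly below 4. The class was read from the rounding steps of the values. Those steps are uninformative for very large differences, such as −6.71 for CIDEA and −5.03 for BTN1A1 in AA 9. Both genes are among the 8, and their levels in AA 9 cannot be read this way. In bulk tissue, fewer cells of a type and less RNA per cell cannot be told apart.

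A single gland, KA 8, held the highest value of all 28 arrays for each of the 7 genes. Its mean over the 7 genes was 2.18, and the next highest means were 0.84 in AA 2, 0.79 in AA 9, 0.76 in KK 4 and 0.45 in AA 7. The remaining arrays lay between −0.43 in KA 12 and 0.34 in KA 1. A gland was called jointly high where over 75% of the 7 genes exceeded the median by more than 0.5, and KA 8, KK 4 and AA 9 met this. No gland was jointly low.

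**Figure D1:**
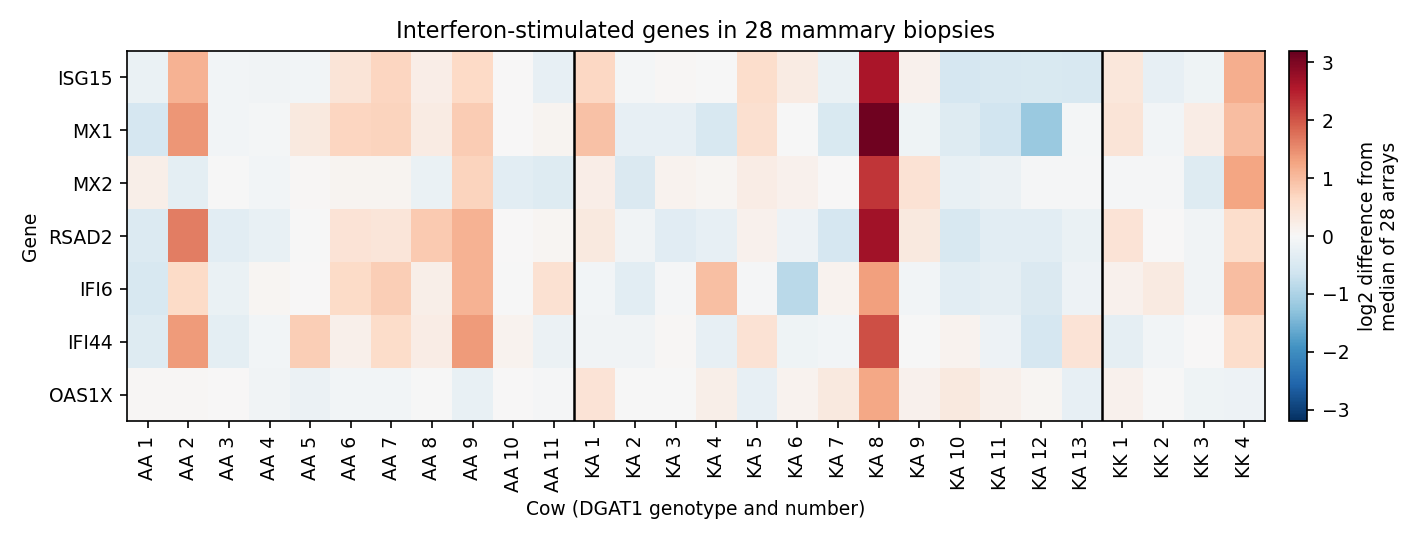
Heat map of the 7 interferon-stimulated genes (rows, IFI44 by 1 probe set) in the 28 biopsies (columns, ordered by genotype AA, KA, KK), coloured by the log2 difference from the median of the 28 arrays. KA 8 is the only column that is red throughout; KK 4, AA 2 and AA 9 are red in several rows, and OAS1X is near or below 0 in all 3 of them.

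In KA 8, 7 of 7 genes exceeded the median by more than 0.5, against 1.63% of all genes on that array. ISG15, a ubiquitin-like protein that is attached to viral and cellular proteins, was 2.61 above the median (6.10-fold), and the next array, KK 4, was at 1.16. MX1, a dynamin-like GTPase that blocks incoming viral ribonucleoproteins, was 3.10 above (8.59-fold), with AA 2 next at 1.41. MX2, the second Mx GTPase, was 2.28 above (4.85-fold), with KK 4 next at 1.27. Each of these 3 genes was thus more than 1 log2 unit clear of every other gland.

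RSAD2 encodes viperin, a radical SAM enzyme that makes a chain-terminating nucleotide. It was 2.68 above the median in KA 8 (6.39-fold), with AA 2 next at 1.63 and AA 9 at 1.10. OAS1X, an oligoadenylate synthetase of the family that activates RNase L, was 1.25 above (2.38-fold), and no other array exceeded the 0.44 of KA 1. OAS1X was the only member that exceeded 0.5 in none of the other 4 high glands: it was −0.17 in KK 4, −0.25 in AA 9, 0.03 in AA 2 and −0.08 in AA 7. The probe set shared by OAS1Y and OAS2 did not follow OAS1X, with 2.13 in KA 8, 1.51 in AA 9, 0.92 in KK 4 and 0.76 in AA 7.

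IFI6, a small interferon-induced membrane protein with antiviral and anti-apoptotic activity, was 1.31 above the median in KA 8 (2.48-fold). Here the lead over the next array was only 0.20, since AA 9 was at 1.11, KK 4 at 0.98 and KA 4 at 0.97. IFI44, an interferon-induced cytoplasmic protein, was 2.05 above (4.14-fold), with AA 2 at 1.37 and AA 9 at 1.36. Its 3 other probe sets gave 1.60, 1.67 and 0.90 in KA 8. On the last of them AA 9 was slightly higher, at 0.95, so 9 of the 10 member probe sets had KA 8 as the highest array.

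Of all 9155 genes, 4 were more than 1 log2 unit higher in KA 8 than in every other array. These were MX1, ISG15, RSAD2 and MX2, all of them members; this count was made after the values had been seen. With a lead of more than 0.5 the number was 8, which adds the members OAS1X and IFI44 and the non-members AFG3L2, a mitochondrial protease subunit, and LOC100298356. KA 8 was otherwise an ordinary array, with an SD over probe sets of 0.28 and 118 probe sets beyond a 2-fold difference from the baseline. Its differences between the 3′ and 5′ control probe sets, a measure of RNA integrity, were 0.27 for actin and −0.26 for GAPDH, within the range of the other arrays.

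**Figure D2:**
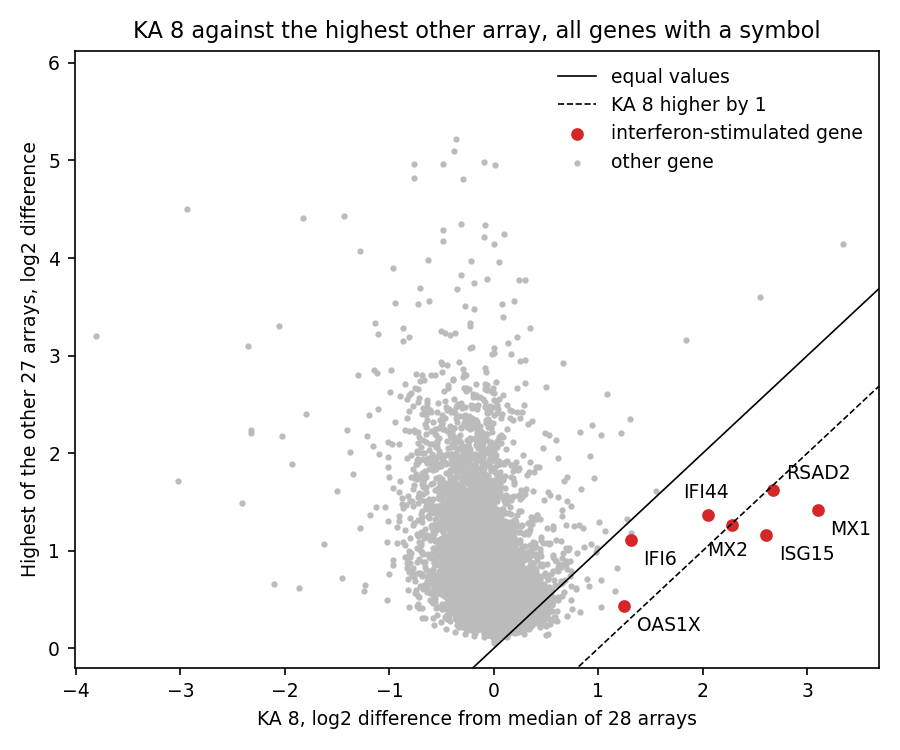
Each of 9155 genes by its value in KA 8 (x axis) and the highest value among the other 27 arrays (y axis), both as log2 difference from the median of 28 arrays; the solid line marks equal values and the dashed line a lead of 1 log2 unit for KA 8. Only MX1, ISG15, RSAD2 and MX2 lie beyond the dashed line.

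In KK 4, 6 of the 7 genes exceeded 0.5, against 3.82% of all genes on that array. The values were 1.27 for MX2, 1.16 for ISG15, 0.98 for MX1 and IFI6, 0.57 for RSAD2 and 0.55 for IFI44, and OAS1X was the exception. RSAD2 and IFI44 lay just above the limit of 0.5, and with the mean over the 4 IFI44 probe sets KK 4 had 5 of 7 genes and was no longer jointly high. KK 1, KK 2 and KK 3 had no gene above 0.5, against 3.06%, 1.23% and 3.88% of all genes on their arrays.

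AA 9 also had 6 of 7 genes and AA 2 had 5 of 7, but 30.2% and 29.1% of all genes on these arrays exceeded the same limit. After quantile normalization, which gives every array the same distribution of values, the counts were 0 of 7 in AA 9 and 1 of 7 in AA 2, with 6.34% and 6.58% of all genes. The same step left 7 of 7 in KA 8 (3.91% of all genes) and 6 of 7 in KK 4 (5.32%). AA 7 had 4 of 7 genes above 0.5, against 1.39% of its genes, with 0.79 for IFI6, 0.72 for MX1, 0.69 for ISG15 and 0.59 for IFI44, and 5 of 7 after quantile normalization.

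The other genes of the interferon system were taken from lists of known pathway members. Of 45 interferon effectors outside the set, 31 were measured, and 14 of them exceeded 0.5 in KA 8, 12 in KK 4, 16 in AA 9, 13 in AA 2 and 3 in AA 7. The median over the 31 genes was 0.43 in KA 8 and 0.38 in KK 4, beside −0.03 and −0.01 over all genes. In KA 8 the values included 1.55 for RTP4, an inhibitor of viral RNA synthesis, 1.18 for IFI27, a mitochondrial relative of IFI6, and 0.96 for XAF1, a pro-apoptotic protein. Of these, only IFI27 was highest in KA 8. RTP4 was 1.61 in AA 9, and XAF1 was 1.75 in AA 9, 1.15 in KK 4 and 1.07 in AA 2. The mean over the 31 genes was 0.60 in AA 9 and 0.47 in both KK 4 and KA 8. After quantile normalization 18 of 31 exceeded 0.5 in KA 8 and 16 in KK 4, and the counts in AA 9 and AA 2 were 7 and 3.

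ISG15 is joined to its targets by the activating enzyme UBA7 and the ligase HERC5 and removed by USP18. In KA 8, 2 of the 6 measured genes of this list exceeded 0.5, UBA7 at 0.74 and USP18 at 0.57. In KK 4 and AA 9 none of the 6 did, and in AA 2 only UBA7 did, at 0.64. IRF9, the DNA-binding subunit of the type I response, was 0.68 above the median in KA 8, 0.89 in KK 4 and 1.72 in AA 9. Of 22 interferons and receptors listed, 8 were measured, and 6 of these had levels partly below 4 on the log2 scale, where background limits what can be seen. In KA 8 the values were −0.19 for IFNG, −0.01 for IFNB1, −0.17 for IFNAR1 and −0.15 for IFNAR2, and 1 of the 8 genes exceeded 0.5, the trophoblast interferon IFNT2 at 0.61.

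KA 8 and KK 4 differed in the targets of interferon gamma and IRF1. Of 18 measured genes of that list, 1 exceeded 0.5 in KA 8 and 3 lay below −0.5, as did 4.75% of all genes on that array, against 12 above in KK 4, 15 in AA 9 and 11 in AA 2. After quantile normalization the counts above 0.5 were 1, 13, 4 and 1. CXCL10, a chemokine for activated T cells, was −0.21 in KA 8, 3.25 in KK 4, 3.97 in AA 9 and 1.00 in AA 2, and the tryptophan-degrading enzyme IDO1 was 0.34, 3.28, 0.73 and 1.18. PSMB8 and TAP1, which make and carry peptides for antigen presentation, were −0.76 and −0.63 in KA 8. CXCL10 was also 2.42 in KA 5 and 1.86 in KA 9, where the means over the 7 members were 0.23 and 0.12. CXCL10, PSMB8 and TAP1 were named after their values had been seen. Each gland is 1 array, so these differences between glands have no test.

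Leukocyte markers also differed between KA 8 and KK 4. In KA 8 the mean over 15 measured T and natural killer cell markers was −0.20, over 6 B and plasma cell markers −1.03, the lowest of 28 arrays, and over 11 myeloid markers −0.36. The value of −1.03 came mainly from JCHAIN at −3.02 and IGHM at −2.41. POU2AF1 was −0.65, MS4A1 −0.25, BLNK −0.04 and CD79A 0.18. In KK 4 the means over these lists, in the same order, were 0.56, 1.04 and 1.02, and 9 of 15, 4 of 6 and 9 of 11 markers exceeded 0.5. In AA 9 they were 0.88, 0.63 and 0.94, and in AA 2 they were 0.77, 1.59 and 1.17. High myeloid markers were not confined to the glands with high member means. The highest myeloid mean of the 28 arrays was 1.29, in KA 5, whose mean over the 7 members was 0.23. After quantile normalization the means were 0.35, 0.19 and 0.31 in AA 9 and 0.29, 0.52 and 0.39 in AA 2, and those of KK 4 were 0.57, 0.87 and 0.87. Plasmacytoid dendritic cell markers, of which 4 were measured, averaged 0.12 in KA 8. The part of cell content in the interferon values of KK 4, AA 9 and AA 2 was not tested. In KA 8 no measured marker of T, natural killer, B, plasma or myeloid cells exceeded 0.5, but only 1.63% of all genes on that array did, against 3.82% in KK 4.

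**Figure D3:**
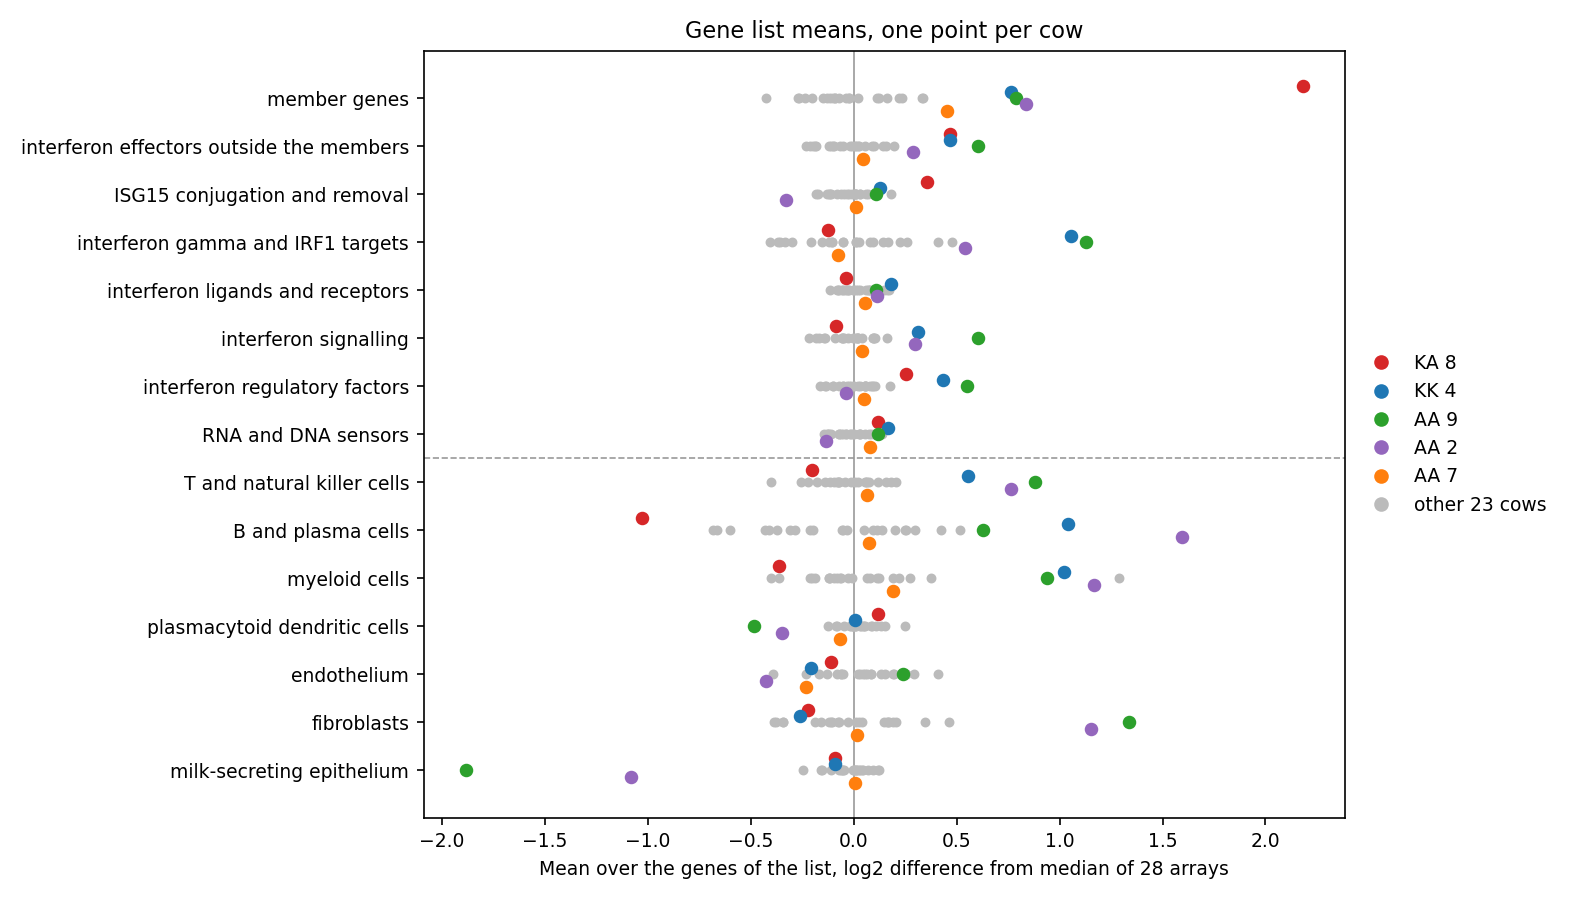
Mean over the genes of each list for every cow (x axis, log2 difference from the median of 28 arrays), with interferon pathway lists above the dashed line and cell type markers below it; marked cows are set at slightly different heights for legibility. KA 8 stands alone for the member genes at 2.18 and is lowest for B and plasma cell markers at −1.03, mainly through JCHAIN and IGHM. By contrast, KK 4, AA 9 and AA 2 lie high for interferon gamma targets and for leukocyte markers in these values, before quantile normalization. The highest myeloid mean is that of KA 5, at 1.29.

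Across the 28 cows the 7 genes were compared in 21 pairs. The closest were ISG15 with MX1 (Pearson r = 0.93, Spearman rho = 0.79), MX1 with RSAD2 (0.91 and 0.89) and ISG15 with RSAD2 (0.90 and 0.78). Each of these r had a permutation p of 1e-05, the smallest that 100000 resamples can give, and an adjusted p of 5.2e-05 over the 21 pairs; the 3 values of rho had the same p and an adjusted p of 7e-05. Without KA 8 and the array next farthest from the median, these r were 0.86, 0.78 and 0.81. Among the lower and among the upper array numbers, the only order the labels give, r was 0.91 and 0.94 for ISG15 with MX1, 0.83 and 0.95 for MX1 with RSAD2, and 0.80 and 0.94 for ISG15 with RSAD2. The upper numbers include KA 8 and AA 9, and the lower ones AA 2 and KK 4. Without these glands r was 0.79, 0.74 and 0.70, in the same order of pairs. ISG15, MX1 and RSAD2 therefore varied together among the remaining cows as well.

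Over all 21 pairs, 19 had an adjusted permutation p under 0.05 by Pearson's r and 11 by Spearman's rho. Without KA 8 the number by Pearson's r was 12, without KA 8, AA 2 and AA 9 it was 9, and without these 3 and KK 4 it was 5. The 15 pairs that leave out OAS1X had r from 0.55 to 0.93, and from 0.25 to 0.87 without KA 8. The 6 pairs with OAS1X had r from 0.19 to 0.54, and without KA 8 all 6 were negative, from −0.49 to −0.18. The relation of OAS1X to the other 6 genes rested on KA 8.

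**Figure D4:**
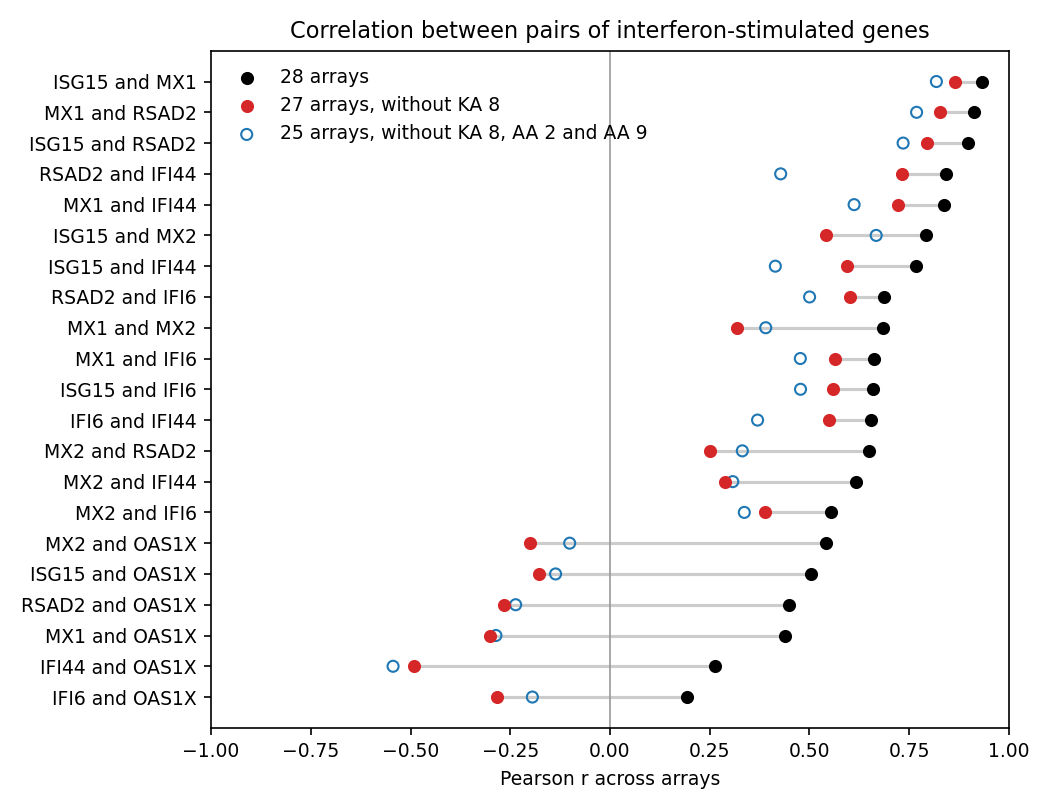
Pearson r across arrays for the 21 pairs of genes (rows), in all 28 arrays (black), without KA 8 (red) and without KA 8, AA 2 and AA 9 (open blue). The pairs among ISG15, MX1 and RSAD2 stay at 0.74 or above in all 3 versions, and the 6 pairs with OAS1X turn from positive to negative without KA 8.

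The genes outside the set whose values were most like the mean of the 7 genes were ranked by Pearson r over the 28 arrays, as a description. They were UBA7 (0.76), the ADP-ribosyltransferase PARP14 (0.72), LOC282255 (0.72), RTP4 (0.71), XAF1 (0.71), the ubiquitin ligase DTX3L (0.71), EPSTI1 (0.70), PLAC8B (0.70), the guanylate-binding protein GBP4 (0.69), IFI27 (0.68), IRF9 (0.66) and SAMD9 (0.63). LOC282255 carries IFITM3, the gene of an endosomal antiviral membrane protein, among its RefSeq synonyms. Without AA 2 and AA 9, r ranged from 0.58 for SAMD9 to 0.84 for RTP4. Without KA 8 it ranged from 0.62 for RTP4 to 0.85 for PLAC8B. Without KA 8, AA 2 and AA 9 it ranged from 0.55 for EPSTI1 to 0.81 for RTP4, and was 0.59 for UBA7. Since KA 8 weighs most in the mean used for the ranking, the values of these 12 genes in KA 8 are not independent of it.

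The study asked how mammary gene expression differs with DGAT1 genotype. None of the 10 member probe sets passed the test in any of the 4 comparisons: 0 of 10 had an adjusted p under 0.05 by limma, as did 0% of all 24016 probe sets. The smallest adjusted p over the 10 was 0.909 for KK against AA, 0.21 for KA against AA, 1 for KK against KA and 0.566 for the change per K allele. At an unadjusted p under 0.05 the counts were 0 of 10 for KK against AA, where 3.51% of all probe sets passed, 1 of 10 for KA against AA (21.8%), 0 of 10 for KK against KA (2.84%) and 0 of 10 per K allele (9.16%). The mean over the 7 genes was 0.20 ± 0.37 in AA (SD, n = 11), 0.10 ± 0.66 in KA (n = 13) and 0.20 ± 0.39 in KK (n = 4), and the groups overlapped.

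ISG15 ranged from −0.26 to 1.10 in AA (median 0.02, highest in AA 2) and from −0.53 to 2.61 in KA (median −0.02), and in KK it was 0.37, −0.27, −0.13 and 1.16. MX1 ranged from −0.54 to 1.41 in AA (median 0.25) and from −1.19 to 3.10 in KA (median −0.27), and in KK it was 0.41, −0.08, 0.23 and 0.98. For both genes the 3 groups overlapped. MX1 was lower in KA than in AA by a fitted difference of −0.29 (SE 0.32, limma adjusted p = 0.578), and without KA 8 by −0.54 (SE 0.21, adjusted p = 0.202), with an unadjusted p of 0.0159. Without AA 2 and AA 9 the difference was −0.11, and without all 3 glands it was −0.37.

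MX2 ranged from −0.41 to 0.71 in AA (median −0.01, highest in AA 9) and from −0.47 to 2.28 in KA (median 0.05), and in KK it was −0.04, −0.03, −0.41 and 1.27. Its difference of KK from AA was 0.22 (SE 0.31) with KK 4 and −0.14 without it. RSAD2 ranged from −0.44 to 1.63 in AA (median 0.06) and from −0.55 to 2.68 in KA (median −0.20), and in KK it was 0.43, 0.01, −0.11 and 0.57. All 4 KK cows lay within the range of the AA cows for RSAD2, and for MX2 KK 4 lay above every AA cow.

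IFI6 ranged from −0.51 to 1.11 in AA (median 0.20) and from −0.87 to 1.31 in KA (median −0.09), and in KK it was 0.13, 0.29, −0.11 and 0.98. IFI44 ranged from −0.40 to 1.37 in AA (median 0.17) and from −0.53 to 2.05 in KA (median −0.08), and in KK it was −0.30, −0.08, 0.02 and 0.55. Neither gene separated the groups. The difference of KA from AA was −0.31 for IFI6 (SE 0.20, limma adjusted p = 0.346), and that of KK from AA was −0.28 for IFI44 (SE 0.33, limma adjusted p = 0.91). Without AA 2 and AA 9 the first was −0.18 and the second −0.05, and the second was −0.45 without KK 4 and −0.17 without KK 1.

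OAS1X had the narrowest spread in AA, from −0.25 to 0.05 (median −0.03), and ranged from −0.27 to 1.25 in KA (median 0.13), and in KK it was 0.13, −0.02, −0.13 and −0.17. It was the probe set behind the single unadjusted p under 0.05, with a difference of KA from AA of 0.24 (SE 0.11, p = 0.0362, limma adjusted p = 0.21). Without KA 8 the difference was 0.15 (SE 0.07, adjusted p = 0.254). The KA and KK cows overlapped with the AA cows here too.

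**Figure D5:**
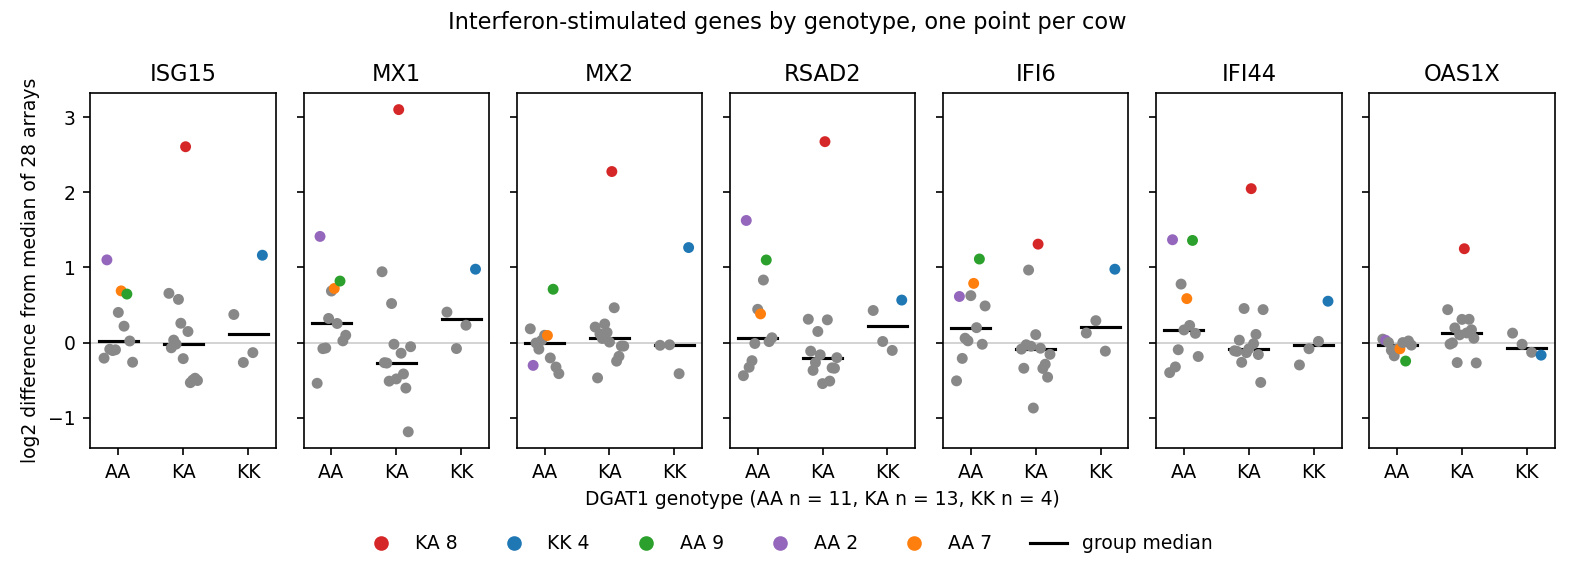
Values of the 7 interferon-stimulated genes by DGAT1 genotype (AA n = 11, KA n = 13, KK n = 4), 1 point per cow, as log2 difference from the median of 28 arrays, with black bars at group medians and the 5 glands with the highest means coloured. The highest point of every gene is KA 8 and the 3 genotypes overlap for all 7 genes.

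Over the 7 genes the median difference of KA from AA was −0.20, beside 0.01 over all 9155 genes, with 5 of 7 genes negative. This value depended on single glands. Without KA 8 it was −0.36. Then 5 of the 10 probe sets had an unadjusted limma p under 0.05, where 19% of all probe sets did. OAS1X was among them and was higher in KA, by 0.15. The others, of MX1, RSAD2, IFI6 and IFI44, were lower. Without AA 2 and AA 9 the median difference was 0.03. Without all 3 glands it was −0.13, with 0 of 10 against 9.04% of all probe sets. The median difference of KK from AA was 0.03, or −0.19 without KK 4, and that of KK from KA was 0.13, or −0.16 without KK 4 and 0.34 without KA 8. In every one of these versions 0 of 10 probe sets had a limma adjusted p under 0.05.

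The lists of other interferon genes gave the same count: 0 of their measured genes had an adjusted p under 0.05 in any comparison. The smallest p-values of the list of effectors, which shares HERC5 with the ISG15 list, came from KA against AA, with −0.25 for HERC5 (SE 0.08, limma adjusted p = 0.139), −0.39 for IFI44L (SE 0.15, adjusted p = 0.172) and 0.40 for IFIT2 (SE 0.16, adjusted p = 0.173). IFIT2 was −1.36 in AA 9 and −1.13 in AA 2, and −0.38 to 0.23 in the other AA cows. Among interferon gamma targets, IDO1 was 1.00 higher in KK than in KA (SE 0.36, limma adjusted p = 1), with 3.28 in KK 4 and −0.09 to 0.74 in the other 3 KK cows. The median difference over the 31 effectors was −0.07 for KA against AA and 0.01 for KK against AA, beside 0.01 and −0.0024 over all genes.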

How the data were processed

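RNA of each biopsy was measured on 1 Affymetrix Bovine Genome Array. Per the labels' protocols, the authors preprocessed the arrays with Bioconductor 2.7 packages in R 2.13, and the submitters' processing notes name RMA and GCRMA without saying which values each made. The deposited values are log2 values from which a baseline per probe set had been subtracted; that baseline is not described, and no probe level files were used here. Rounding steps left in the values gave each probe set's class of absolute level, except in arrays where a value lay very far from the baseline. By these steps, 3 probe sets reached above 11.09, the natural log of the scanner's highest reading, which places the scale at base 2. No values were missing. With 1 array per cow, the number of arrays limits the precision.

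Of 24128 probe sets, 112 controls were left out. Of the 24016 others, 13292 had 1 gene symbol in the platform annotation, 86 had several and 10638 had none; 13263 of the 13292 matched a RefSeq gene. 1 probe set stood for each gene, the plainest type first and then by identifier. Groups came from the labelled genotype. The genotype comparisons came from 1 linear model of all 28 arrays in limma 3.58.1 (R 4.3.3) with moderated variances and Benjamini-Hochberg adjustment over 24016 probe sets, at a threshold of 0.05. Correlations used permutation tests with 100000 resamples in Python 3.11.15 with scipy 1.17.1. In tests on simulated data, limma recovered 70% of probe sets changed by 0.5 per K allele in KA against AA. It recovered 43% in KK against KA and 84% in KK against AA, where that change is doubled. In simulated data without any change it called 0 probe sets. False calls in the simulated data that held changes were not counted. The shares recovered are for changed probe sets among all 24016 and were not worked out for the members. They therefore do not show how often such a change in a member would be found. In KA against AA the SE of the 10 member probe sets ran from 0.11 to 0.32.

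The members, the gene lists and the limit of 0.5 were chosen with earlier results of these data known. Every member was named, with the 12 genes most like their mean and, of other lists, up to 3 genes with the smallest p; other genes named for single glands were chosen after their values were seen. Alternatives were quantile normalization, array centring, array weights, robust variances, array number as a covariate or block, the groups compared alone, a threshold of 0.1, probe sets with 1 symbol, other gene summaries and each array left out; leaving out sets of the glands that stood apart, the lower or upper array numbers and Spearman counts were added after seeing the data. Promoter sequences were not used here.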

Additional observations from a re-analysis of the deposited data

How the results depend on the processing

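In the 4 genotype comparisons, 0 of 10 member probe sets had a limma adjusted p under 0.05 under each of the 10 or 11 alternatives run for a comparison and with each of the 28 arrays left out. At an unadjusted limma p under 0.05 the count for KA against AA went from 1 to 5 without KA 8. For KK against KA it went from 0 to 2 (MX1 and RSAD2) without KA 8, AA 2 and AA 9. The smallest limma adjusted p was then 0.765, and the share of all probe sets in that version is not given here. Over the arrays left out in turn, the median difference over the 7 genes ran from −0.19 to 0.10 for KK against AA, from −0.36 to −0.10 for KA against AA, from −0.16 to 0.34 for KK against KA and from −0.14 to 0.02 per K allele. The difference in MX2 of KK from AA ran from −0.14 (without KK 4, the only reversal among the genes named for a comparison) to 0.42. With lower against upper array numbers as a block, the median difference of KA from AA was −0.19; all 4 KK cows have lower numbers. The number of jointly high glands was 3 with array centring (KA 8, KK 4 and AA 9), and 2 with quantile normalization (KA 8 and KK 4), with the mean over all probe sets of a gene, and against the median of the own genotype (both KA 8 and AA 9). Of 21 pairs of genes, 19 passed by Pearson's r in all arrays; 20 did without AA 2 and AA 9, 12 without KA 8, 12 without the 2 arrays farthest from the median, 9 without KA 8, AA 2 and AA 9, 5 without these and KK 4, 10 in the lower array numbers, 15 in the upper ones, and 11 by Spearman's rho. Fewer arrays enter most of these counts, and the cause was not tested further. No paired analysis was possible because replicate numbers were given in accession order and name no pairs. Levels of MX2 and of 3 IFI44 probe sets lay partly below 4 on the log2 scale, where background limits the precision. The promoter motif description was not run, since no sequence table was used here.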

Other observations

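Other lists of the interferon system were counted in the same way. The share of all genes that lay as high was 1.63% in KA 8, 3.82% in KK 4, 30.2% in AA 9 and 29.1% in AA 2. Of 7 measured genes of interferon signalling, 1 exceeded the 28-array median by more than 0.5 in KA 8, 2 in KK 4, 4 in AA 9 and 4 in AA 2, and after quantile normalization the counts were 1, 3, 1 and 0. In KA 8 that gene was IRF9, and STAT3, a signal transducer shared with other cytokines, was −0.60. Of 6 interferon regulatory factors, the counts were 1, 2, 3 and 2, or 2, 2, 2 and 0 after quantile normalization, and IRF7, the factor that amplifies type I interferon production, was 0.44 in KA 8 and no higher in any other gland. Of 7 RNA and DNA sensors, the counts were 1, 0, 1 and 1, or 1, 0, 1 and 0 after quantile normalization, and the KA 8 gene was DHX58, a regulator of RNA sensing, at 0.53. Of 9 endothelial markers, 0 exceeded 0.5 in KA 8 and KK 4, 3 in AA 9 and 2 in AA 2, or 1 and 0 in the last 2 arrays after quantile normalization. The genes of this paragraph that are named for KA 8 were chosen after their values were seen.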
